A study of Mus musculus with 6 samples.

Results

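The aldo-keto reductases of the AKR1A, AKR1B and AKR1C families and the steroid enzyme Hsd3b6 were followed in fibroadipogenic progenitors (FAPs), stromal cells of muscle from which both fibroblasts and fat cells can form. The 9 genes named were Akr1c18, Akr1c12, Akr1c13, Akr1c14, Akr1b3, Akr1b8, Akr1b10, Akr1a1 and Hsd3b6. They were chosen by name with their expression in senescent and control FAPs already known, so their levels and differences are given as a description, with no p value. Of these 9 genes 8 were among the 16894 genes of the deposited table, and Akr1c12 was not in it. All 8 were among the 14776 genes that reached 0.5 CPM in at least 3 libraries. Akr1c13 and Hsd3b6 did so through the senescent libraries alone.

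FAPs had been isolated from the quadriceps, gastrocnemius and tibialis anterior of male and female C57BL/6 mice, 3 to 6 months old, as cells without CD45, CD31 and α7-integrin that carried SCA-1, and grown in culture. Bulk RNA-seq covered 3 libraries of control (non-senescent) FAPs and 3 of senescent FAPs. The latter had received 20 μM of etoposide, a topoisomerase poison that breaks DNA, over 48 h, with 5 days of recovery in drug-free medium before collection. No vehicle, and no separate animal or culture behind each replicate, is given in the sources used here, so the spread between replicates may be technical. The model is a culture of sorted cells exposed to a drug, not muscle of old animals.

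Aldo-keto reductases are soluble enzymes that reduce aldehydes and ketones with NADPH. AKR1C enzymes act on steroids and prostaglandins, AKR1B enzymes on glucose, retinal and reactive aldehydes, and AKR1A1 on a broad range of aldehydes. Hsd3b6 belongs to the unrelated 3β-hydroxysteroid dehydrogenases, which make progesterone from pregnenolone, whereas Akr1c18 (20α-hydroxysteroid dehydrogenase) removes progesterone by reducing it to 20α-hydroxyprogesterone. These steroid enzymes are best known from the ovary, the adrenal gland and the testis rather than from muscle.

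The AKR1C and AKR1B genes lie in tandem arrays of close relatives, which bears on how firmly reads can be given to one gene. In the GENCODE M21 annotation of GRCm38, the build called mm10, Akr1c14 spans chr13:4049011-4090688 (plus strand), Akr1c18 chr13:4132615-4150654 (minus strand), Akr1c13 chr13:4191150-4205596 (plus strand) and Akr1c12 chr13:4268176-4279433 (minus strand). Akr1b3 spans chr6:34302434-34317478 (minus strand), Akr1b8 chr6:34354119-34368463 (plus strand) and Akr1b10 chr6:34384218-34396950 (plus strand). Akr1a1 lies alone at chr4:116636510-116651680 (minus strand) and Hsd3b6 at chr3:98805504-98814443 (minus strand). The coding part of the first coding exon, shown to let the relatives be compared, runs for 84 bases in each AKR1C gene and 66 bases in each AKR1B gene. Read 5′ to 3′ on the coding strand, capitals mark bases that differ from Akr1c18 (23 in Akr1c12, 23 in Akr1c13 and 30 in Akr1c14).
Akr1c18: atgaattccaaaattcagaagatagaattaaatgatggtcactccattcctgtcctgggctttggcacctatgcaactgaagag
Akr1c12: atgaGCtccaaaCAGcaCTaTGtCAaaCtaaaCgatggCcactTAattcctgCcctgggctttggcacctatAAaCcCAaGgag
Akr1c13: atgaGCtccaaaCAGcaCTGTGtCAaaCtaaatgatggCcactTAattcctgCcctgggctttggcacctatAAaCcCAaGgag
Akr1c14: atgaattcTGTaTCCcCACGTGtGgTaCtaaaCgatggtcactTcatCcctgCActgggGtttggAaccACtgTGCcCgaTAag
These 4 exons are at chr13:4150515-4150598, chr13:4279273-4279356, chr13:4191227-4191310 and chr13:4059632-4059715, in the order printed.

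In the AKR1B exons, at chr6:34317340-34317405, chr6:34354231-34354296 and chr6:34384342-34384407, capitals mark bases that differ from Akr1b3 (16 in Akr1b8 and 18 in Akr1b10).
Akr1b3: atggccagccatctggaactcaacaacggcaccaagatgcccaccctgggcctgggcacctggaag
Akr1b8: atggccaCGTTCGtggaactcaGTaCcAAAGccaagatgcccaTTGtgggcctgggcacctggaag
Akr1b10: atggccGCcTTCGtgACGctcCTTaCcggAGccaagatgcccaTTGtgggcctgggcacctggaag
Over the whole coding sequence Akr1c12 and Akr1c13 were 96.2% identical, Akr1b8 and Akr1b10 85.1%, and Akr1c18 and Akr1c14 76%. Of the 50-base stretches in the transcripts of Akr1c13, 28.6% also occurred in Akr1c12, so a read of that length could belong to either, and the value of Akr1c13 is uncertain on that account. For Akr1b3 the share was 55.2%, all of it with pseudogenes, among which Gm6644 held 2.07 to 3.25 CPM, Gm6736 0.203 to 0.887 CPM and Gm12138 0.36 to 1.01 CPM. Akr1a1 shared no such stretch, Akr1c18 0.581%, Akr1b10 3.07%, Akr1b8 3.21% and Akr1c14 5.9%. Hsd3b6 shared 16%, mostly with Hsd3b2 and Hsd3b3, neither of which was listed in the table. How reads matching several genes were counted is not given in the sources used here.

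Levels are in CPM, reads scaled to the effective library size, as deposited. Between 41412179 and 59912520 reads fell on genes per library, so that 1 read was worth 0.0167 to 0.0225 CPM. Over all genes, 3218 (21.8% of those tested) were higher and 3592 (24.3%) lower in senescent FAPs by limma with Benjamini-Hochberg adjustment at an adjusted p under 0.05. Higher genes made up 47.3% of these calls, and 72.1% when libraries were scaled by their totals alone, a choice that moved the median log2 difference of all genes from -0.03 to 0.17. Cdkn1a, the cell cycle inhibitor p21, was 259, 274 and 336 CPM in control and 1037, 1017 and 1060 CPM in senescent replicates 1, 2 and 3. Mki67, a marker of dividing cells, was 125, 247 and 101 CPM against 19, 9.8 and 9.27 CPM. Control replicate 2 stood apart for several of the genes described here, and the largest such differences are given with and without it.

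Markers of FAPs were present in both groups. Ly6a, which encodes the sorted antigen SCA-1, rose from 372 ± 132 to 625 ± 76 CPM (SD, n = 3), a call lost when any 1 of the senescent libraries was left out. Cd34 rose from 22.5 ± 3.97 to 70.1 ± 17.4, Dcn from 62.3 ± 33.6 to 197 ± 21.2 and Lum from 0.535 ± 0.39 to 3.39 ± 0.216. Col1a1 fell from 15545 ± 5576 to 3116 ± 876 CPM, while Pdgfra (192 ± 58.4 and 218 ± 35.7), Col3a1 (10041 ± 3929 and 6471 ± 1435) and Pdgfrb (1010 ± 63.4 and 865 ± 16.9) did not pass the test. The 8 FAP markers summed to 16955 to 35595 CPM in control and 9930 to 14254 CPM in senescent libraries. Of 10 markers of steroid-making cells, 5 (Cyp17a1, Cyp21a1, Nr5a1, Mc2r and Lhcgr) were not listed, and the other 5 summed to 5.16 to 5.93 CPM in control and 8.22 to 10.8 CPM in senescent libraries, with Star the highest on average in senescent FAPs at 4.05 ± 0.927 CPM. Of 8 leukocyte markers, Ptprc, Adgre1, Cd3e and Cd79a were not listed, and the other 4 summed to 8.85 to 12 CPM in control and 21.1 to 26 CPM in senescent libraries. Of these, Cd53 rose from 1.98 ± 1.67 to 11.4 ± 2.74 CPM, Cd68 from 1.47 ± 0.35 to 4.81 ± 0.867 CPM and Itgam from 0.0223 ± 0.0387 to 0.631 ± 0.178 CPM, while Csf1r, at 6.74 ± 0.573 and 7.56 ± 0.489 CPM, did not pass the test. The sums were 18 to 38.4 and 22.2 to 29.2 CPM for 5 endothelial markers (Pecam1 rose, Kdr fell, and Tek, the most abundant, did not pass the test), and 14.3 to 19.3 and 23.4 to 30.2 CPM for 6 myogenic markers (Itga7 rose and Des did not pass the test), with Pax7, Myod1, Myf5 and Myog not listed. The part of any of these in the values given here was not tested, and in bulk RNA fewer cells of a type and less RNA per cell cannot be told apart.

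Of the 8 genes Akr1c18 had the largest difference between the groups on the log2(CPM + 0.5) scale. It was at 1, 25.6 and 1.18 CPM in control replicates 1, 2 and 3 and at 57.5, 96.6 and 105 CPM in senescent replicates 1, 2 and 3, from 45, 1345 and 66 reads and from 2897, 5772 and 4649 reads. Every senescent library was above every control, but control replicate 2 held 23.4 times the mean of the other controls. The group means were 9.25 ± 14.1 and 86.2 ± 25.2 CPM (SD, n = 3), 9.32 times apart. The log2 difference was 4.38 with an SE of 0.99, the fifth largest among the 14776 genes tested on this scale. That rank depends on the pseudocount and the model, since edgeR on the recovered reads gave 3.24 for Akr1c18 and 8.13 for Hsd3b6. By limma the difference of Akr1c18 was 5.72 without control replicate 2, 3.66 without control replicate 1, and 3.74 without control replicate 3. Leaving out a senescent library gave 4.21 to 4.64. Between libraries with the same replicate number the differences were 5.27, 1.90 and 5.96. Over all genes such libraries deviated from their group means together to a limited degree (r = 0.54, 0.31 and 0.21). For Akr1c18 itself replicate 3 did not, being low in control (1.18 CPM) and highest in senescent FAPs (105 CPM).

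Akr1c14, the 3α-hydroxysteroid dehydrogenase that reduces dihydrotestosterone and dihydroprogesterone, had a like profile at a lower level. Control replicates 1, 2 and 3 held 0.803, 2.72 and 1.04 CPM and senescent replicates 2.96, 7.11 and 8.06 CPM. The groups did not overlap, although senescent replicate 1 was only just above control replicate 2, itself 2.95 times the mean of the other controls. Means were 1.52 ± 1.04 and 6.04 ± 2.71 CPM (SD, n = 3), and the log2 difference was 1.71 with an SE of 0.43. It was 2.10 without control replicate 2 and ranged from 1.45 to 2.11 over the libraries left out in turn. The pairs of same-numbered libraries differed by 1.41, 1.24 and 2.47.

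Akr1c13, a less studied neighbor, was near the bottom of the measured range. It had 13, 22 and 19 reads in control and 72, 64 and 48 reads in senescent libraries, which are 0.29, 0.418 and 0.341 CPM against 1.43, 1.07 and 1.08 CPM. The groups did not overlap, which the filter alone fixed, because only senescent libraries reached 0.5 CPM. Unlike its neighbors, Akr1c13 was highest in senescent replicate 1. Its means of 0.35 ± 0.0646 and 1.19 ± 0.205 CPM (SD, n = 3) stood 3.41 times apart. The log2 difference of 0.99 (SE 0.16) understates that ratio because the pseudocount of 0.5 exceeds the control level, and edgeR on the recovered reads gave 1.78. Akr1c12 was not in the table, so its level was not analysed here.

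**Figure D1:**
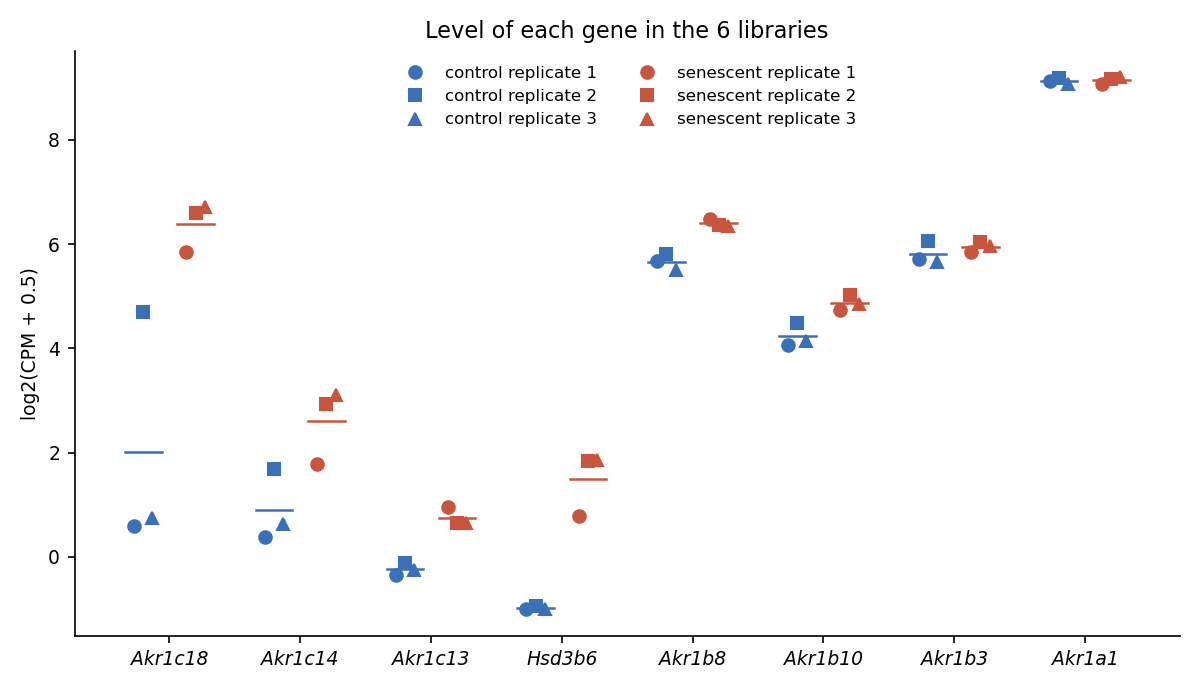
Level of each gene as log2(CPM + 0.5) in the 3 control (blue) and 3 senescent (red) libraries, with the symbol giving the replicate number and the line the group mean. Control replicate 2 lies between the other controls and the senescent libraries for the 6 genes whose groups do not overlap. It stands furthest above the other controls for Akr1c18 and Akr1c14. The groups overlap for Akr1b3 and Akr1a1.

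Hsd3b6, which carries out the step from pregnenolone to progesterone, was all but absent from control FAPs. A single read was counted in the 3 control libraries together (0, 1 and 0 reads), against 62, 184 and 139 reads in senescent replicates 1, 2 and 3, or 1.23, 3.08 and 3.13 CPM. All senescent libraries were above all controls, which the filter alone fixed here too, with senescent replicate 1 the lowest. Allowing for the library sizes, the 385 senescent reads against 1 control read, pooled over libraries, gave a ratio of 381. Its exact 95% interval from 68 to 15101 covers counting error only and leaves out the spread between libraries. Because Hsd3b6 was chosen on this contrast, the interval is no test of a difference. The log2 difference was 2.48 with an SE of 0.29 at a pseudocount of 0.5, but 4.50 at 0.1 and 1.73 at 1, so that its size is set by the pseudocount. Pairs of same-numbered libraries differed by 1.79, 2.79 and 2.86. Sums of the steroid-making cell markers were 5.16 to 5.93 CPM in control and 8.22 to 10.8 CPM in senescent libraries. Among these markers Star was called higher, while Cyp11a1, Cyp11b1 and Inha did not pass the test, and 5 of the 10 were not listed. Whether they vary with Hsd3b6 was not tested.

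In the AKR1B family the difference was smaller and fell on 2 of the 3 genes. Akr1b8, first described as a fibroblast growth factor-regulated protein, was at 50.7, 55.9 and 44.7 CPM in control and 89.3, 81.7 and 80.8 CPM in senescent replicates 1, 2 and 3. Its groups were well apart, with means of 50.4 ± 5.58 and 83.9 ± 4.67 CPM (SD, n = 3), a ratio of 1.66 and a log2 difference of 0.73 with an SE of 0.10. Akr1b10, an aldose reductase-like enzyme for reactive aldehydes and retinal, was at 16.2, 21.9 and 17.1 CPM against 26.3, 32.1 and 28.5 CPM. These groups were also apart, with control replicate 2 the closest to the senescent libraries. Means of 18.4 ± 3.04 and 29.0 ± 2.94 CPM (SD, n = 3) gave a ratio of 1.57 and a log2 difference of 0.65 with an SE of 0.14. Leaving out each library in turn gave 0.65 to 0.81 for Akr1b8 and 0.56 to 0.77 for Akr1b10. The 3 pairs of same-numbered libraries differed by 0.81, 0.54 and 0.85 for Akr1b8 and by 0.68, 0.54 and 0.72 for Akr1b10.

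Akr1b3, the aldose reductase that turns glucose into sorbitol, overlapped between the groups. Its values were 51.9, 66.0 and 50 CPM in control and 57.2, 65.4 and 62.1 CPM in senescent replicates 1, 2 and 3, so that the highest library was control replicate 2. Means were 56.0 ± 8.75 and 61.6 ± 4.15 CPM (SD, n = 3), with a log2 difference of 0.15 and an SE of 0.12. Akr1a1, the aldehyde reductase that also serves vitamin C synthesis in mice, was at 558, 585 and 540 CPM against 537, 576 and 587 CPM. Both the lowest and the highest library were senescent ones. Its means of 561 ± 22.6 and 567 ± 26.3 CPM (SD, n = 3) gave a log2 difference of 0.01 with an SE of 0.08. With libraries scaled by their totals alone, the differences of Akr1b3 and Akr1a1 were 0.36 and 0.23, and relative to the median of all genes Akr1a1 lay at 0.05 under the deposited scaling and at 0.06 under library totals.

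**Figure D2:**
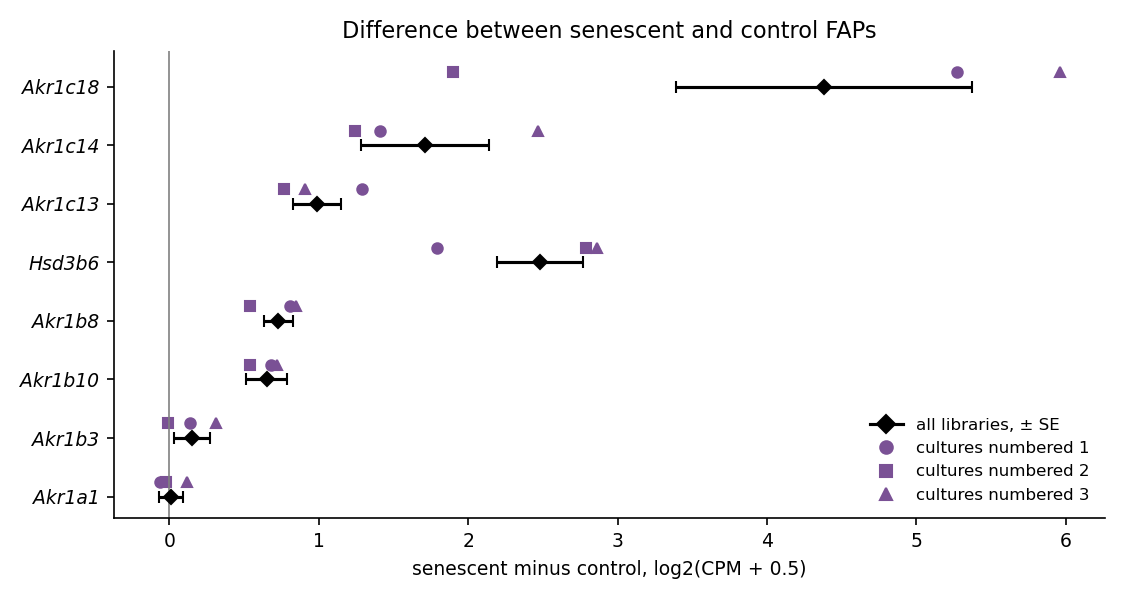
Difference of each gene between senescent and control FAPs on the log2(CPM + 0.5) scale. Diamonds with bars give the difference over all 6 libraries ± SE. Purple symbols give the differences between libraries with the same replicate number, which for Akr1c18 were 5.27, 1.90 and 5.96 and for Akr1a1 lay on both sides of 0.

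Of the 8 genes, 6 passed the threshold of limma's test as higher and 0 as lower, beside 21.8% and 24.3% of all genes tested. In 6 genes all senescent libraries lay above all control libraries, which was the case for 26.5% of all genes, and in 0 genes all lay below, against 30.9%. For Akr1c13 and Hsd3b6 the filter alone fixed the separation of the groups, because only senescent libraries reached 0.5 CPM. All 8 genes were chosen on this same contrast, and nothing is read from these counts. Control replicate 2 was the highest control for all 8 genes (for Hsd3b6 through 1 read), as for 38.9% of all genes tested, and senescent replicate 1 was the lowest senescent library for 6 of 8, as for 37.3%.

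Transcript levels per kb of exon, which allow a rough comparison between genes, differed widely. The length joined the exons of all protein-coding transcripts, 3183 bases for Akr1c14 and 1207 for Akr1c18, whichever transcript was expressed. The level of Akr1b3 is uncertain because the counting of reads shared with its pseudogenes is not known. Both limits also apply to the shares of the family sum. Akr1a1 was far above the rest, at 366 ± 14.8 CPM per kb in control and 370 ± 17.2 in senescent FAPs (SD, n = 3). In control FAPs Akr1b3 (38.4 ± 6.01) and Akr1b8 (37.1 ± 4.11) came next and did not differ beyond their spread, followed by Akr1b10 (13.4 ± 2.22). Akr1c18 ranged there from 0.832 to 21.2 CPM per kb, so that its place relative to Akr1b10 depended on the library. Akr1c14 (0.478 ± 0.328) and Akr1c13 (0.277 ± 0.0512) overlapped, and Hsd3b6 was last. In senescent FAPs Akr1c18 (71.4 ± 20.9) came second beside Akr1b8 (61.8 ± 3.44), with ranges of 47.7 to 86.7 and 59.5 to 65.8 that overlapped. Akr1b3 (42.3 ± 2.85) and Akr1b10 (21.1 ± 2.15) followed, and then Akr1c14 (1.9 ± 0.852), Hsd3b6 (1.38 ± 0.6) and Akr1c13 (0.946 ± 0.162), whose ranges overlapped.

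The make-up of the 7 listed aldo-keto reductases of these families differed between the groups. Their sum was 451, 507 and 434 CPM per kb in control and 524, 588 and 596 CPM per kb in senescent replicates 1, 2 and 3. Akr1a1 made up 80.9%, 75.4% and 81.2% of the sum in control and 66.8%, 64% and 64.3% in senescent replicates. The AKR1C genes made up 0.292%, 4.42% and 0.364% against 9.48%, 14.1% and 15.1%. Within the AKR1C sum, Akr1c18 held 63.3% and 62.2% in control replicates 1 and 3 and 94.7% in control replicate 2, close to the 95.9% to 96.3% of the senescent libraries. AKR1B genes held 18.4% to 20.2% in control and 20.6% to 23.7% in senescent libraries, and the ratio of Akr1b8 to Akr1b10 per kb ran from 2.58 to 3.15 and from 2.57 to 3.43, overlapping between the groups.

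Within the arrays, the genes that differed between the groups were neighbors of genes that did not or that were not listed. In the AKR1C array Akr1c14, Akr1c18 and Akr1c13 are consecutive protein-coding genes, starting 0, 83.6 and 142.1 kb from the left edge of Akr1c14, whereas Akr1c19, Akr1c12, Akr1c6, Akr1c20 and Akr1c21 further along were not in the table. Akr1e1, a relative at 541.7 kb, was at 17 ± 1.84 and 20.4 ± 0.367 CPM. On the other side, Net1, which encodes an exchange factor for RhoA, had a log2 difference of -0.52 with an SE of 0.20 (adjusted p = 0.0647 by limma, and 0.00618 with the replicate block). In the AKR1B array Akr1b3, Akr1b8 and Akr1b10 start 0, 51.7 and 81.8 kb along, and Akr1b7 at 109.9 kb was not in the table. Beyond it Bpgm, the enzyme that makes 2,3-bisphosphoglycerate, had a log2 difference of 0.61 with an SE of 0.26 (adjusted p = 0.0867 by limma, and 0.0196 with the replicate block).

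**Figure D3:**
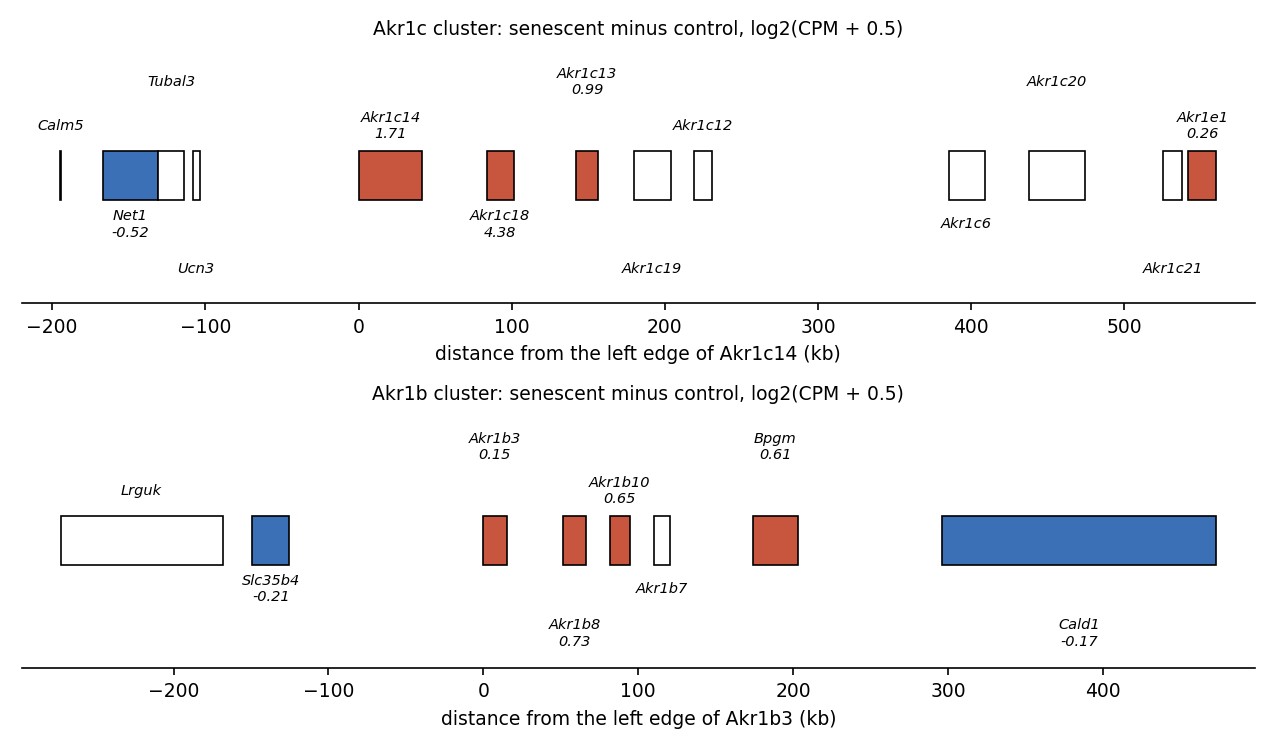
Maps of the AKR1C array (top) and the AKR1B array (bottom), with boxes drawn to scale in kb from the left edge of Akr1c14 or Akr1b3. Numbers give the log2(CPM + 0.5) difference, red boxes a positive and blue boxes a negative one whether or not it passed the test, and white boxes genes below the level tested or not in the table.

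The promoter of Akr1c18 is shown because this gene differed most on the log2(CPM + 0.5) scale. The 250 bases before its start in RefSeq on GRCm38.p6, within chr13:4150597-4150896 (minus strand), are in lower case with no part marked.
Akr1c18 upstream: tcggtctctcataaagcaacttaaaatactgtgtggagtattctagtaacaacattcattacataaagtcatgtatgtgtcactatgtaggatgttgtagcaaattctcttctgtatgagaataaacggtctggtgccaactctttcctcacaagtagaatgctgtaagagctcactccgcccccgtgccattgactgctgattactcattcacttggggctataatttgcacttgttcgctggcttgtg
The windows of 300 bases around the start, 250 before and 50 after, were searched on both strands for 4 sets of letters in the 8 genes that had one (Akr1b3 had no entry). The core of the antioxidant response element bound by NRF2 (TGACNNNGC) occurs in 12.4% of 32851 mouse promoters, the AP-1 site (TGANTCA) in 7.81%, the NBRE of NR4A receptors (AAAGGTCA) in 1.51% and the STAT site (TTCNNNGAA) in 8.3%. None of the 8 windows held any of the 4, which says only that these letters are not there.

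The profile of Akr1c18 over the libraries was shared by other genes. By Pearson correlation of log2(CPM + 0.5) over the 6 libraries, which all genes share with their depth and grouping, the 3 genes most like it were Smox (r = 0.999), which encodes spermine oxidase, Spp1 (0.999), which encodes the secreted protein osteopontin, and Mgp (0.998), the matrix Gla protein. Spp1 was at 331, 2041 and 384 CPM in control and 2991, 3891 and 4096 CPM in senescent replicates 1, 2 and 3. Like Akr1c18 it was high in control replicate 2 and higher still in each senescent library. Of the 14776 genes tested, Akr1c18 had the largest excess of control replicate 2 over the other controls, 4.03 on the log2 scale, with Spp1 ninth at 2.52. An excess of at least 2 was found in 20 genes, and the median of all genes was -0.00. Some cell markers also set control replicate 2 apart. In control replicates 1, 2 and 3, Ly6a was at 440, 220 and 456 CPM and Pdgfra at 238, 126 and 212 CPM. Col1a1 (21130, 9978 and 15527), Col3a1 (12785, 5539 and 11798) and Cd34 were also lowest in replicate 2. Dcn, Lum and Pdgfrb lay between the other controls there. Cd53 was at 0.96, 3.92 and 1.08 CPM. Whether these bear on the excess was not tested. Akr1c14 had an excess of 1.18, and the other 6 listed genes between 0.05 and 0.38. Mki67 was also in excess in that library, by 1.14, while Cdkn1a was not (-0.11).

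**Figure D4:**
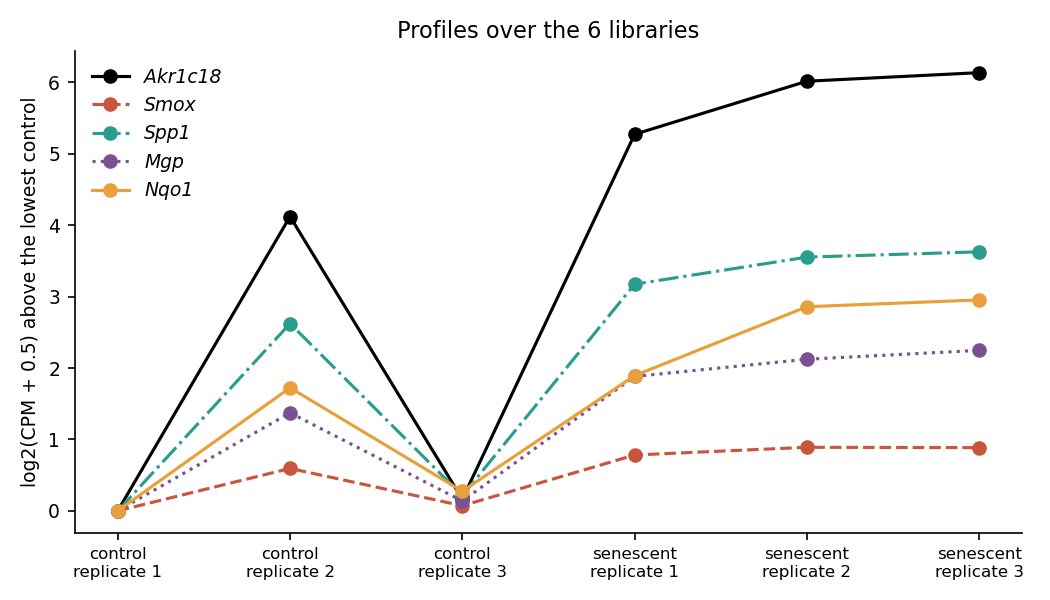
Level of Akr1c18, of the 3 genes most like it and of Nqo1 in each library, as log2(CPM + 0.5) above the lowest control. All 5 are raised in control replicate 2, by most for Akr1c18, and are higher again in the senescent libraries.

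For the other genes the closest profiles had r of 0.984 or more. Akr1c14 was closest to Slc25a37 (0.999), the mitochondrial iron carrier mitoferrin, Snn (0.998) and Prkcb (0.997). Akr1c13 was closest to Inhbb (1.000), which encodes a subunit of activin B, Slit3 (0.997) and Ak1 (0.997). Akr1b8 was closest to Ap3b2, Ftl2 and Usp30 (0.997 to 0.998), Akr1b10 to genes that include Csf2rb and Itga2 (0.998 each), and Hsd3b6 to Gm26870, Crem and S100a7a (0.998 to 0.999). Akr1b3 was closest to Gm15487, Map9 and Mrc2 (0.992 to 0.994), and Akr1a1 to Hip1, Map3k4 and F2rl3 (0.984 to 0.986). At r of 0.95 or more, 1016 genes matched Hsd3b6, 384 Akr1c18 and only 11 Akr1a1, so that such values are common for genes with separate groups. Among the 8 genes themselves, Akr1c18 was closest to Akr1b10 (0.97) and Akr1c14 (0.95), and Akr1c13 to Akr1b8 (0.98).

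Genes outside the 9, related to them by family, substrate or pathway, were tested in the fit over all genes. Each list is described by its counts, to be read beside the 21.8% of all genes that were higher and the 24.3% that were lower. Among 5 other aldo-keto reductases tested of 12 named, 0 passed limma's adjusted threshold, 2 had an unadjusted p under 0.05, and edgeR called 0 and DESeq2 1, with a median log2 difference of -0.04 against -0.03 for all genes. Akr1e1 differed by 0.26 (SE 0.11, adjusted p = 0.0792 by limma), Kcnab3, a potassium channel β subunit of the same superfamily, by -0.37 (SE 0.15, adjusted p = 0.0818), Akr7a5 by 0.10, Kcnab1 by -0.04 and Kcnab2 by -0.05. Without control replicate 2, 1 of them passed in each direction. Of 3 relatives of Hsd3b6 tested of 8 named, Sdr42e1 rose from 0.796 ± 0.212 to 2.47 ± 0.332 CPM (adjusted p = 0.00172 by limma). Nsdhl, an enzyme of cholesterol synthesis, fell from 77.4 ± 4.34 to 43.8 ± 1.89 CPM (adjusted p = 0.000325). Hsd3b7, of bile acid synthesis, was at 66.4 ± 6.24 and 77.7 ± 3.22 CPM (adjusted p = 0.0619, and 0.0441 with the replicate block).

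Of 21 genes of steroid synthesis and metabolism tested, 6 rose and 3 fell, beside 21.8% and 24.3% of all genes, with a median log2 difference of 0.22. Hsd11b1, which reactivates glucocorticoids, rose from 2.4 ± 1 to 13.2 ± 1.3 CPM (adjusted p = 0.000408 by limma). Star, which brings cholesterol into mitochondria ahead of Hsd3b6, rose from 1.33 ± 0.151 to 4.05 ± 0.927 CPM (adjusted p = 0.00135). Hsd11b2 rose by 0.98 on the log2 scale, a call lost without senescent replicate 2 (0.83). Srd5a1, the 5α-reductase upstream of Akr1c14, fell from 2.7 ± 0.332 to 1.38 ± 0.327 CPM (adjusted p = 0.011), Hsd17b12 from 111 ± 6.48 to 85 ± 11.9 and Hsd17b10 from 47.9 ± 5.73 to 38.6 ± 2.39 CPM. Hsd17b12 lost its call without control replicate 3 or senescent replicate 2, and Hsd17b10, at an adjusted p of 0.0498 by limma, when any library other than control replicate 2 was left out. Cyp11a1, which makes the pregnenolone that Hsd3b6 uses, was at 0.826 ± 0.623 and 1.27 ± 0.651 CPM and did not pass the test.

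Receptors for the steroids on which these enzymes act were counted next, and 6 of 10 tested rose and 1 fell, with a median of 0.53. The progesterone receptor Pgr was at 0.647, 1.73 and 2.44 CPM in control and 4.19, 9.3 and 10.1 CPM in senescent replicates 1, 2 and 3, a log2 difference of 2.00 (SE 0.42, adjusted p = 0.00673 by limma). Nr3c2, the mineralocorticoid receptor, rose from 0.0821 ± 0.0408 to 1.06 ± 0.232 CPM, near the bottom of the measured range. Its log2 difference of 1.41 was 2.68 at a pseudocount of 0.1 and 0.92 at 1. Esr1, an estrogen receptor, rose by 1.32. Paqr8, a membrane progesterone receptor, fell from 10.8 ± 0.633 to 8.14 ± 1.03 CPM, with the call lost when any library other than senescent replicate 1 was left out. The 6 higher calls were made whichever library was left out.

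Prostaglandins are substrates of AKR1B and AKR1C enzymes, and 7 of 18 genes for their synthesis, breakdown and reception rose and 1 fell (median 0.30). Hpgd, which inactivates prostaglandins, rose from 0.218 ± 0.0572 to 3.09 ± 0.138 CPM (adjusted p = 0.00012 by limma), Ptges, a prostaglandin E synthase, from 27.5 ± 2.19 to 70.1 ± 6.85 CPM, and Ptgfr, the receptor of prostaglandin F2α, from 2.97 ± 0.59 to 7.53 ± 0.896 CPM. Ptges3 fell from 51.5 ± 2.96 to 39.1 ± 3.5 CPM. In the polyol pathway and osmotic response, 2 of 6 genes rose and 1 fell (median 0.26), again beside 21.8% and 24.3% of all genes. Without control replicate 2 these counts were 3 and 2, and 4 rose with libraries scaled by their totals alone. Sord, which acts on the sorbitol made by Akr1b3, rose from 4.02 ± 1.13 to 11.6 ± 1.05 CPM (adjusted p = 0.00107 by limma) and the fructokinase Khk from 4.16 ± 1.02 to 8.61 ± 0.5 CPM, while the taurine transporter Slc6a6 fell from 472 ± 10.4 to 306 ± 20.7 CPM.

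Other enzymes that act on aldehydes and carbonyls rose in 14 of 19 cases and fell in 2 (median 0.52), with 9 rises left without senescent replicate 2 or 3. Aldh1a1, a retinaldehyde dehydrogenase, rose from 3.9 ± 1.79 to 28.8 ± 9.49 CPM (adjusted p = 0.000699 by limma) and Dcxr, a xylulose reductase, from 17.7 ± 4.2 to 66.3 ± 5.87 CPM. Aldh3a1 rose by 2.03 on the log2 scale, a call lost without senescent replicate 2 (1.83) or 3 (1.89), by edgeR and by DESeq2. Aldh1a3 fell from 148 ± 29.6 to 48.8 ± 12.5 CPM and Aldh9a1 from 26.6 ± 2.93 to 17.8 ± 0.835 CPM.

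Several aldo-keto reductases are known targets of the stress factor NRF2, and of 17 genes of its pathway 9 rose and 1 fell (median 0.39), with 6 rises left without senescent replicate 2 or 3. Hmox1, heme oxygenase, rose from 190 ± 37 to 732 ± 168 CPM (adjusted p = 0.000437 by limma) and Osgin1 from 6.56 ± 0.832 to 16.8 ± 2.15 CPM. Nqo1, a quinone reductase, was at 15.7, 53 and 19.1 CPM in control and 59.7, 117 and 125 CPM in senescent replicates 1, 2 and 3. Like Akr1c18 it was high in control replicate 2, with an excess of 1.59 there. Its log2 difference of 1.90 (adjusted p = 0.0126 by limma) lost its call without senescent replicate 2 (1.76) or 3 (1.71). The list as a whole did not share the excess. In control replicates 1, 2 and 3, Gclc was at 26.7, 33.2 and 29.2 CPM, but Hmox1 at 188, 153 and 227 CPM. Srxn1, at 124, 104 and 120 CPM, was likewise lowest in control replicate 2. The 1 fall was that of Abcc1, from 221 ± 22.2 to 175 ± 24 CPM with overlapping groups, named here after its values were seen; it was not called without control replicate 1 or 3 or senescent replicate 2 or 3. With libraries scaled by their totals alone, the count of falls was 0 in the receptor, prostaglandin and NRF2 lists.

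**Figure D5:**
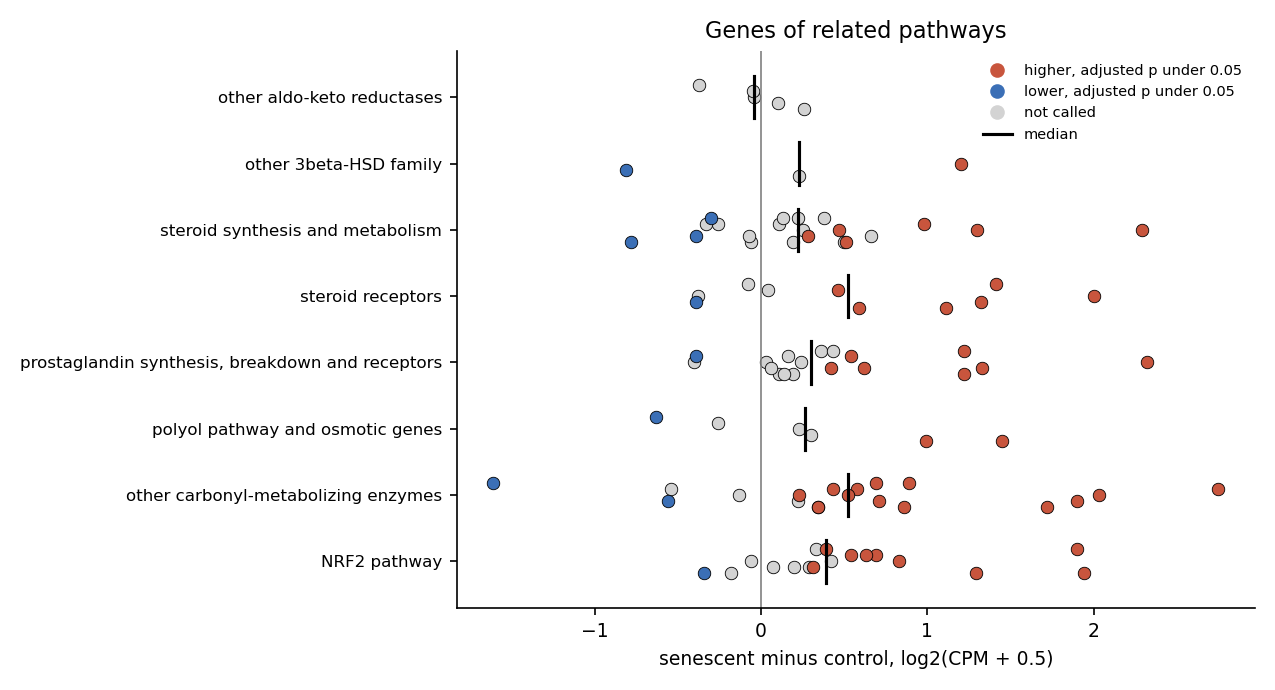
Log2(CPM + 0.5) difference between senescent and control FAPs for each tested gene of the 8 related lists. Points are genes, red or blue where limma's adjusted p was under 0.05, and bars are list medians, which ran from -0.04 in the other aldo-keto reductases to 0.53 in the steroid receptors.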

How the data were processed

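RNA of 6 libraries (TruSeq Stranded mRNA kit) was measured by bulk RNA-seq. Per the submitters' processing notes the authors used genome build mm10, edgeR 3.10 and R 3.6.0; the aligner, the counter, the annotation and the use of strand are not given in the sources used here. The deposited signal is CPM, reads scaled to the effective library size, with a value for each gene in each library and no pooling of replicates. All values were whole multiples of 1 read within 0.001 reads, so reads were recovered for 100% of them. The 1 line that named no gene took 0.0041% to 0.007% of reads and was dropped.

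Libraries were grouped by their titles. Genes that reached 0.5 CPM in 3 or more libraries were fitted in limma (3.58.1, under R 4.3.3), using log2(CPM + 0.5) and a variance trend, two-sided, and p values were adjusted by Benjamini-Hochberg over all 14776 genes. The plan assumed plain CPM, and the test, tested on simulated data, was kept. Levels per kb used the exons of protein-coding transcripts. Replicates of a group differed beyond sampling noise. Same-numbered libraries deviated together (r = 0.54, 0.31 and 0.21), though senescent replicate 3 was nearly as close to control replicate 2 (0.15). No pairing is given in the sources used here, and the main fit was unpaired, with the replicate block as an alternative.

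The 9 genes and all lists were chosen with earlier results of these data known. Named were the 9 genes, in each related list up to 3 called genes with the largest rise and 3 with the largest fall whose groups did not overlap, every other tested aldo-keto reductase and 3β-hydroxysteroid dehydrogenase relative, the 3 genes most like each of the 8 listed ones (1 of which is not reported here), every FAP marker and the most abundant gene of each other marker list. Cdkn1a, Mki67, Cyp11a1, Abcc1, Gclc, Srxn1, Net1, Bpgm and the other markers named were added after their values were seen (others for sequence or place). Alternatives were another pseudocount, filter or scaling, each library left out, a replicate block, summed relatives, and edgeR 4.0.16 or DESeq2 1.42.0 on the recovered reads.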

Additional observations from a re-analysis of the deposited data

How the results depend on the processing

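Scaling by library totals alone gave 4992 higher and 1929 lower genes in place of 3218 and 3592, and 5 lower genes of the related lists in place of 10, and put Akr1b3 at 0.36 in place of 0.15 on the log2 scale, Akr1b8 at 0.94 in place of 0.73, Akr1b10 at 0.85 in place of 0.65 and Akr1a1 at 0.23 in place of 0.01. The low genes depended on the pseudocount and the model. Akr1c13 moved from 0.99 to 1.52 at a pseudocount of 0.1, 0.70 at 1, 1.78 by edgeR and 1.80 by DESeq2, and Hsd3b6 from 2.48 to 4.50, 1.73, 8.13 and 8.5. Akr1c18 was 3.24 by edgeR and 3.25 by DESeq2 in place of 4.38. The 4.38 is a difference between means of log2 values, while the group means in CPM were 9.32 times apart. Control replicate 2, at 25.6 CPM beside 1 and 1.18 CPM, weighs more in a mean of CPM than in a mean of log2 values. With each library left out in turn, calls ranged from 2130 to 3405 higher and 2416 to 3875 lower genes, and in the related lists from 33 to 54 higher, in place of 45, and 6 to 12 lower. The lowest count of higher genes, 2130, came without senescent replicate 2, and the 6 lower related genes without control replicate 3 or senescent replicate 2. With the replicate block 3576 genes were higher and 3947 lower, the SE of Akr1c18 was 0.68 in place of 0.99, and of the named genes Hsd3b7, Net1, Bpgm and Snn gained a call and none lost one. Over 33 named genes of the related lists and 15 alternatives, 452 of 491 values were counted as unchanged. Of the rest, 30 lost and 9 gained a call with the direction kept, and 0 called genes reversed. A change of sign in a gene not called in the main fit was counted as unchanged, called or not. Kcnab1, at -0.04 in the main fit and 0.41 without control replicate 2, is such a case. Akr1b8 and Akr1b10 summed gave 0.72. A filter at 2 CPM gives no value for Akr1c13 and Hsd3b6, and the sum of Akr1c12 with Akr1c13 was not run because Akr1c12 was not in the table. With 13 to 22 reads per control library, depth limits Akr1c13, and with 1 control read it leaves the ratio of Hsd3b6 poorly determined.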
